A study of Mus musculus with 2 samples.

Results

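The keratins of stressed epidermis (Krt6a, Krt6b, Krt16 and Krt17) and the keratins of simple epithelium (Krt7, Krt8, Krt18 and Krt19) were followed in mouse skin keratinocytes with and without a Cre recombinase directed against the vitamin D receptor gene. All 8 genes were on the array, with 10 of its 25697 probes and 8 of its 17871 genes. They were chosen by gene symbol. Only Krt7 was filed under its current symbol, and the other 7 genes were found through the Entrez number or RefSeq accession of older names such as Krt2-6a and Krt1-17.

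The group labelled knockout (KO) had the genotype VDR fl/fl K14 driven Cre, and the control group (CON) had VDR fl/fl, so both carried the floxed alleles. Mice of both groups were 3 months old and were fed a diet low in calcium. Each group was 1 Illumina bead array with RNA pooled from 3 mice, and keratinocytes came from epidermis lifted from the dermis after 0.25% trypsin. The K14 promoter is active in basal epidermal cells and the outer follicle, so other cells in the preparation are reached only if they descend from these. With 1 array per group there was no spread between replicates, no test was possible, and each value below describes these pools alone.

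Keratins assemble as obligate pairs of a type I (acidic) and a type II (basic) protein. Krt6a and Krt6b are type II partners of the type I keratins Krt16 and Krt17, and this set is known from hair follicles, nails and footpads at rest and from interfollicular epidermis after wounding or in inflammation. Krt8 and Krt7 are type II and Krt18 and Krt19 type I keratins of single-layered epithelia and glands. In skin, Krt8 and Krt18 are known from Merkel cells and sweat glands, Krt7 from glands, and Krt19 in the mouse from the hair follicle bulge.

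Among the simple-epithelium keratins, Krt7 was higher on the array labelled knockout, whereas no signal above background was found for Krt8, Krt18 or Krt19 on either array. Among the stress keratins, Krt16 and Krt17 were bright on both arrays and nearly equal between them. Krt6b was dim, with a direction that depended on the probe, and Krt6a was not well above background. Promoter sequences of RefSeq (GRCm38.p6) were matched for 3 of the genes, and these are shown because they set the simple-epithelium keratin with a difference beside a type II and type I pair that was not detected. Each stretch is the 250 bases before the annotated start, read 5′ to 3′ on the strand of the gene. They lie at chr15:101412153-101412402 (plus strand) for Krt7, chr15:102004343-102004592 (minus strand) for Krt8 and chr15:102027966-102028215 (plus strand) for Krt18. Capitals mark 3 elements that nuclear receptors can bind, which are AGGTCA and its variants with the letters GGGTCA and with the letters GGTTCA. They also mark the TATA box with the letters TATAAA, its variant with the letters ATAAAA, and the AP-1 site TGAGTCA.
Krt7: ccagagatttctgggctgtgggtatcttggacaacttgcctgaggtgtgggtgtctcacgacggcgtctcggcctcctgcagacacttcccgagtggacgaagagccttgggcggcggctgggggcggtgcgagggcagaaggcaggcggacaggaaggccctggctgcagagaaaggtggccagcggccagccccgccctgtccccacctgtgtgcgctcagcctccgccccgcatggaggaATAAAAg
Krt8: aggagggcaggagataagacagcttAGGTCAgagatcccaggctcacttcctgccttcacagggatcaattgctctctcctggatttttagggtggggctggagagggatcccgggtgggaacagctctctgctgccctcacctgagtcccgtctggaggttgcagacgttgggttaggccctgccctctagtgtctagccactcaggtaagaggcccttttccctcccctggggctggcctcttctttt
Krt18: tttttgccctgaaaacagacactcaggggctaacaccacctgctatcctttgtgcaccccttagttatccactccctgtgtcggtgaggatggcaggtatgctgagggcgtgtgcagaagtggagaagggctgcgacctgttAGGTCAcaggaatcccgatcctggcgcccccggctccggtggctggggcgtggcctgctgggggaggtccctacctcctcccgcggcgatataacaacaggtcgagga

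The search covered both strands of the 300 bases around each start, 250 before it and 50 after it, and the TATA box and its variant can overlap each other. AGGTCA was found at 225 bases before the start of Krt8 and 108 bases before that of Krt18. The match in Krt7 began at base 16 after the start and is therefore not in the stretch shown. Of all 32851 promoter windows of the same length, 16.3% held AGGTCA, 13.7% held GGGTCA and 10.4% held GGTTCA. No window of the 3 genes held the variants of the receptor element, or the AP-1 site, which was present in 5.2% of all windows. None held the receptor elements as a direct repeat with NNN between them, an arrangement known for the vitamin D receptor, which was found in 0.0304% of all windows. ATAAAA, found in 18.5% of all windows, began 7 bases before the start of Krt7. It also matched across the start of Krt8 on the other strand. TATAAA, found in 13.6%, spanned the start of Krt8 on both strands. GC content of the stretches shown was 66.0% for Krt7, 58.0% for Krt8 and 60.4% for Krt18.

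Signals are average bead intensities before normalization unless stated, and a probe was called detected when its detection p, put in the rank order of the signals, was under 0.05. This corresponded to a signal of at least 159.2 on the array labelled knockout and 163.5 on the control array. In total, 12147 probes (47.3%) were detected on the array labelled knockout and 11994 (46.7%) on the control array. The targeted gene itself, Vdr, showed no loss of signal on the array labelled knockout, with 2667 against 2468 for its brightest probe, 1692 against 1514 and 304.7 against 237.8 for the others. The probes were not placed against the deleted part of the gene, so they check nothing if they lie outside it, and every direction rests on the label. The defining keratinocyte genes Krt5, Krt14, Krt1, Krt10 and Trp63 were detected on both arrays, as were all 10 keratinocyte markers examined, with a median log2 difference of -0.04. Of the sex-linked transcripts, Xist was higher on the array labelled knockout, with 1770 against 896.7. The Y-linked Ddx3y (210.3 against 828.5) and Kdm5d (161.0 against 216.9) were lower there. Uty was detected on the control array alone, at 164.2, and Eif2s3y on neither. With 1 array per group, a difference in the sex of the pooled mice cannot be told apart from genotype, and its part in the results below was not tested.

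Krt7 had a signal of 423.3 on the array labelled knockout and 181.6 on the control array. Its probe was thus well above background on the array labelled knockout and close to the detection limit on the control array. Measured against the background fitted to each array (mean 140.9 and SD 10.1 on the array labelled knockout, 143.2 and 10.3 on the control array), the signals lay 27.8 and 3.75 background SDs above the mean. In the order of signals, Krt7 was at position 5767 of 25697 on the array labelled knockout and at position 10341 on the control array.

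After removal of the background and quantile normalization, the log2 difference of Krt7 was 2.53, which corresponds to 5.77-fold. The deposited normalized intensities were 522.9 against 208.8, or 2.50-fold. The ratio of the signals before any normalization was 2.33. The fold differed between these calculations, and Krt7 stayed above 2-fold higher in each of them. Krt7 ranked 4th from the top among 8392 genes detected on both arrays, and 8th in the deposited normalized values. Of 1293 probes with a control signal within 10 units of that of Krt7, the median on the array labelled knockout was 172.9 and the 95th percentile 213.2. Only Krt7 and the stefin gene Stfa3 reached 423.3 or more there. A single probe measured Krt7, so no other probe checks it, and its sequence was not examined for binding to other transcripts.

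The signals of Krt8, the type II keratin of simple epithelium, were 149.5 on the array labelled knockout and 147.8 on the control array. Krt18, its type I partner, had 149.0 and 135.2. Krt19, a type I keratin that is unusual in its very short tail, had 136.6 and 143.9. All lay below the detection limit on both arrays, and since values at background have no order, no fold is given. Together with the probes of Krt6a, these 5 undetected probes spanned 136.6 to 149.5 on the array labelled knockout and 135.2 to 147.8 on the control array. That is -0.42 to 0.85 and -0.78 to 0.45 background SDs from the background mean. A level of these transcripts below the detection limit of their probes was not detectable here, so a signal at background does not show that they were absent.

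**Figure D1:**
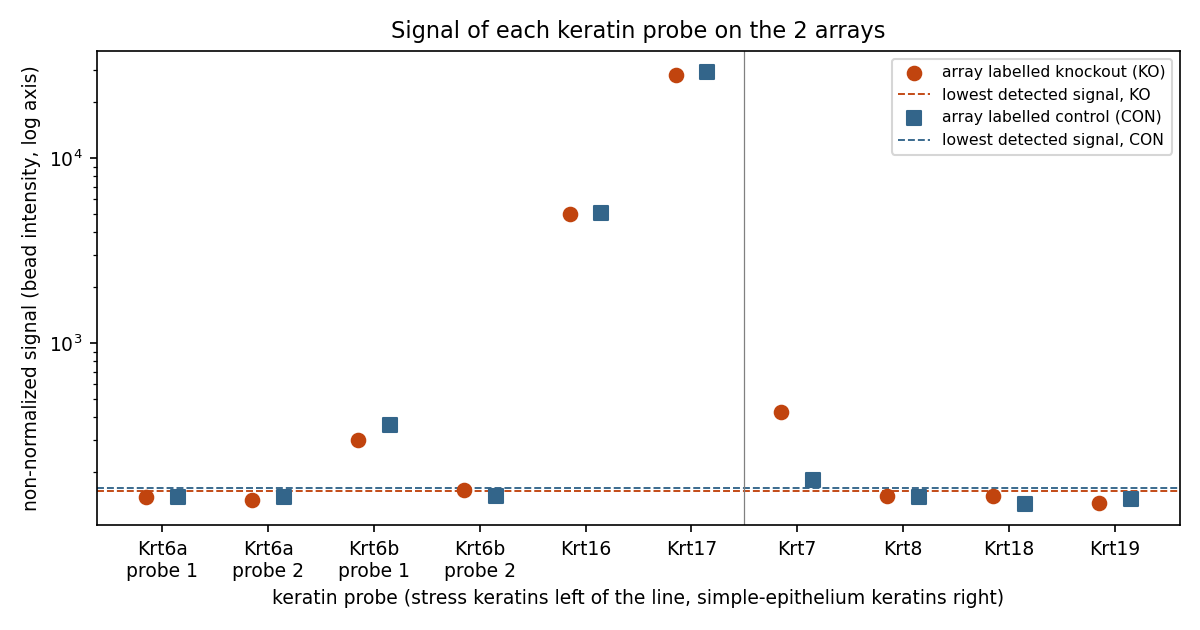
Non-normalized signal (bead intensity, logarithmic axis) of each of the 10 keratin probes, with circles for the array labelled knockout and squares for the control array. Dashed lines mark the lowest detected signal on each array, 159.2 and 163.5, and the plot shows Krt16 and Krt17 far above them on both arrays, Krt7 well above them on the array labelled knockout (423.3) and close to them on the control array (181.6), and Krt6a, Krt8, Krt18 and Krt19 below them.

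Krt17, a type I keratin of the outer root sheath and of activated keratinocytes, had a signal of 28079 on the array labelled knockout and 29119 on the control array. It stood at positions 29 and 30 among 25697 probes, near the highest signals on the arrays of 40891 and 41511. Krt16, the type I keratin most closely tied to wounded and hyperproliferative epidermis, had 4960 and 5032, at positions 616 and 626. Both probes were slightly dimmer on the array labelled knockout before normalization. The normalized log2 differences were 0.02 for Krt17 and 0.02 for Krt16, and with the arrays scaled to the same median they were -0.03 and 0.00. The sign of such a difference followed the scaling, and the size stayed small under each setting tried.

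Krt6b, a type II partner of Krt16 and Krt17, was measured by a pair of probes that disagreed. The brighter probe had a signal of 298.8 on the array labelled knockout and 359.3 on the control array, a log2 difference of -0.35 (1.27-fold lower). The dimmer probe had 161.1 and 148.4, which was above the detection limit on the array labelled knockout only, and by a margin of under 2 units. Averaged over the probes, the log2 difference of Krt6b was 0.08, so that its direction depended on the probe. Krt6a, the close copy of Krt6b, had 146.5 and 141.7 on the array labelled knockout and 147.5 and 146.8 on the control array. Neither probe of Krt6a was well above background on either array. Krt6a and Krt6b neighbour each other on chromosome 15 and differ little in sequence, so a probe of either gene may also have bound the other's transcript, and the assignment to a copy is uncertain.

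The probes of Krt16 and Krt17 and the brighter probe of Krt6b were detected on both arrays, and both probes of Krt6a on neither. Levels cannot be compared between probes, which differ in binding strength. All 4 probes of Krt6a and Krt6b, with those of Krt8 and Krt19, were designed from the MEEBO collection, whereas those of Krt7, Krt16, Krt17 and Krt18 were designed from RefSeq transcripts. Of the members' probes, 2 of 6 from MEEBO and 3 of 4 from RefSeq were detected on at least 1 array. Over the whole array the shares were alike, with 50.5% of 8229 MEEBO probes and 50.1% of 17468 RefSeq probes detected.

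**Figure D2:**
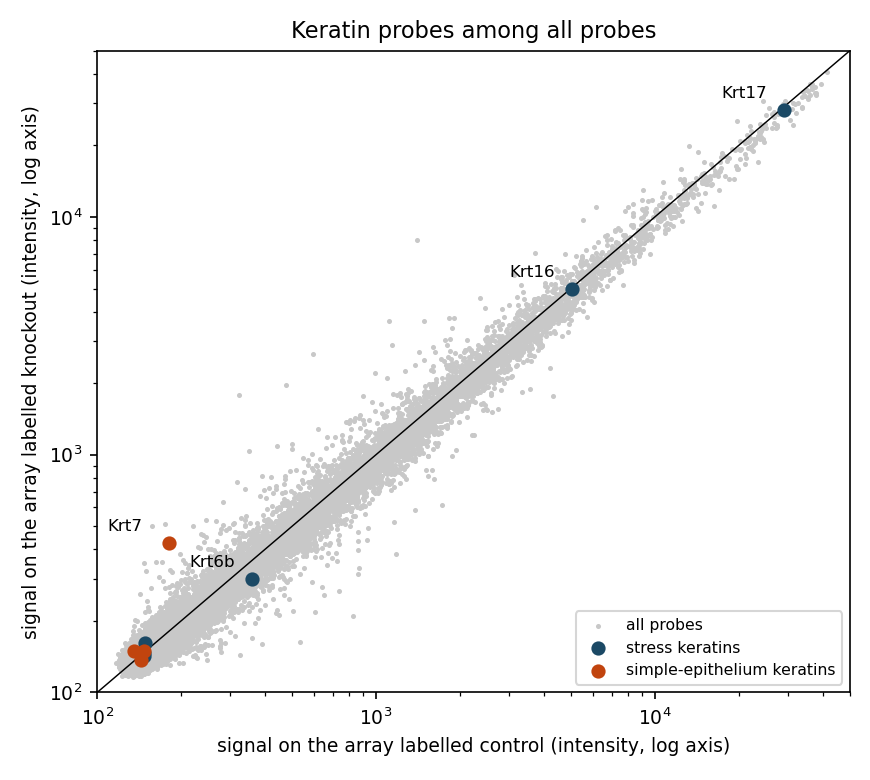
Signal of every probe on the array labelled knockout (vertical, intensity on a logarithmic axis) against that on the control array (horizontal, same scale), with the diagonal marking equal signals. Krt16, Krt17 and Krt6b lie on or near the diagonal, Krt7 lies above the main cloud at 423.3 against 181.6, and the remaining members sit at the dim end among the probes near background.

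Set side by side, 1 of the 4 simple-epithelium keratins was at least 2-fold apart, Krt7, and 3 were not detected. Of the 4 stress keratins, 0 were at least 2-fold apart, 3 lay within 2-fold and 1 was not detected. Over the whole array, 228 of 9536 detected genes (2.39%) were at least 2-fold apart (1.28% upward and 1.11% downward on the array labelled knockout). The median log2 difference of the detected stress keratins was 0.02, beside 0.00 over all detected genes. The simple-epithelium keratins had no median other than the value of Krt7 (2.53), so the gap of 2.51 between the groups is a statement about Krt7 and not about the class. In the deposited normalized values the same counts were found, 1 simple-epithelium and 0 stress keratins, beside 0.461% of all detected genes (0.283% upward and 0.178% downward). There Krt7 had a log2 difference of 1.32, and the stress keratins had a median of 0.02.

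The spread of the differences over all genes gives a scale for these values. When the 8392 genes detected on both arrays were ordered by mean signal and split into 5 equal parts, Krt7 and Krt6b fell in the second dimmest part, where the SD of the log2 differences was 0.46. The 5th and 95th percentiles there were -0.60 and 0.67, so that Krt6b at -0.35 lay inside this range and Krt7 at 2.53 outside it, second only to the highest value of 3.06. Krt16 and Krt17 fell in the brightest part, where the SD was 0.23 and the percentiles were -0.30 and 0.35. Their differences of 0.02 lay well inside. This spread is across genes of 2 pools and is not a spread between replicates.

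**Figure D3:**
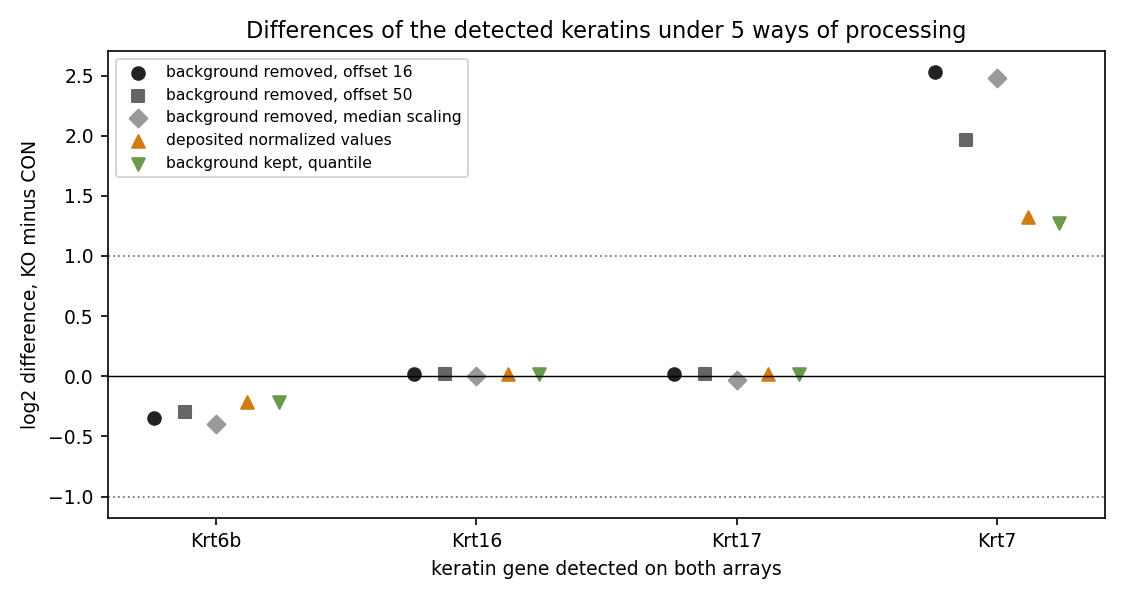
Log2 difference (KO minus CON) of the 4 members detected on both arrays under 5 ways of processing the signals, with dotted lines at 2-fold. Krt7 runs between 1.27 and 2.53 and stays above 2-fold under each setting, Krt16 and Krt17 stay within 0.03 of 0, and Krt6b runs between -0.39 and -0.21.

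Of the 45 keratin genes examined in 5 lists, 29 were detected on at least 1 array. Krt7 was the only one that reached 2-fold upward, and the next highest difference was that of Krt79 (0.45), a keratin of the upper follicle and sebaceous duct, with 25313 against 19763. Among 7 interfollicular keratins, 0 were at 2-fold and the median was -0.16, with -0.51 for Krt2, -0.37 for Krt15, -0.28 for Krt5, -0.16 for Krt77 and 0.07 for Krt10, which had the highest mean signal over the arrays. Among keratins of the inner root sheath and hair shaft, 10 were detected, of which 6 were lower by 2-fold or more and 0 higher. Over all detected genes the shares were 1.11% and 1.28%. The median of these hair keratins was -1.26 (-1.12 with bounds). In the deposited normalized values it was -0.68 with 1 gene at 2-fold lower, beside 0.178% of all detected genes. The inner root sheath keratins Krt71, Krt73 and Krt27 had -2.85, -1.78 and -1.72, and the hair shaft keratins Krt33a and Krt32 had -1.99 and -1.24. The detected markers of melanocytes and fibroblasts also had values below 0. Of 6 melanocyte markers 4 were detected, and their median was -1.47 (-0.86 with bounds and -0.66 in the deposited values), with sums of 851.9 against 1365. Of these, 1 was at 2-fold lower under both settings, Dct, with 162.3 against 533.5, and Tyr and Mitf were detected on neither array. Of 8 fibroblast markers 4 were detected, and their median was -1.06 (-0.86 with bounds and -0.67 in the deposited values), with sums of 1452 against 2147. Dcn (-2.07) and Col6a1 (-1.28) were at 2-fold, against 0 genes in the deposited values, and Col1a2, Col3a1, Lum and Pdgfra were not detected. Background makes up much of the sums of both marker lists. The part of melanocytes and fibroblasts in the hair keratin values was not tested. The other epithelial keratins had a median of 0.10, with 0 of 8 at 2-fold, and Krt24 had -0.58. Krt222 was at least 1.03-fold lower and Krt4 at least 1.06-fold higher. Krt75, a type II keratin of the companion layer of the hair follicle, was not well above background by any of its probes. None of these differences between lists could be tested.

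**Figure D4:**
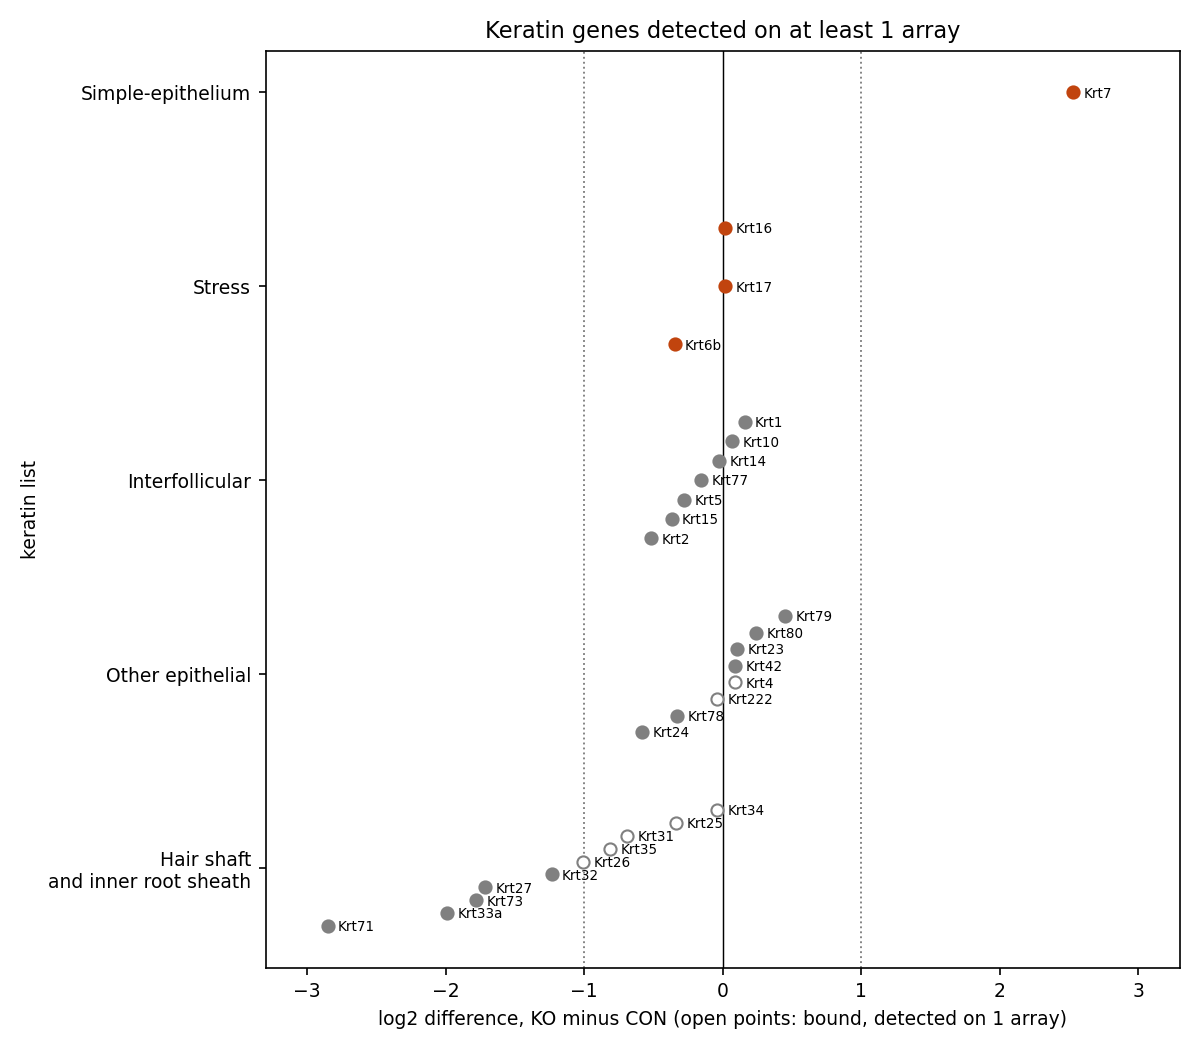
Log2 difference (KO minus CON) of each keratin gene detected on at least 1 array, by list, with simple-epithelium and stress keratins in colour and dotted lines at 2-fold. Open points are bounds for genes detected on 1 array. Krt7 at 2.53 stands apart from the other keratins, the stress keratins lie between -0.35 and 0.02, and the hair keratins lie at or below 0.

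No measured gene next to a member on the chromosome was at least 2-fold apart. The neighbours of Krt7 on chromosome 15 are Krt80, at 865.7 against 783.5 (log2 difference 0.24), and Krt87, which was not detected. Krt16 and Krt17 neighbour each other on chromosome 11, where Krt14 and Krt42 flank them with differences of -0.03 and 0.09. Krt19 lies beside Krt15, a basal and bulge keratin that had 16981 against 23412. Krt8 and Krt18 neighbour each other on chromosome 15 between Krt78 (-0.33) and Eif4b (-0.09).

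Genes listed as partners of keratin filaments, mostly of proteins that bind or crosslink them, differed little. The list also held Vim, itself an intermediate filament gene, and Krtcap3, which is named for keratinocytes and not for binding keratin. Of 13 detected genes, 0 were at 2-fold and the median log2 difference was 0.00. The largest differences were -0.51 for Tchp, which binds keratin filaments, -0.30 for Krtcap3, -0.23 for Fbf1 and -0.23 for Sfn, an adaptor known to bind Krt17. The brightest, the cytolinker Eppk1, had 0.20. Regulators linked to stress keratins had a median of -0.01 with 0 of 13 at 2-fold. Among them the AP-1 subunit genes Fosl1, Jun, Fos and Junb had 0.51, 0.36, -0.06 and -0.07, Sp1 had -0.45 and Myc had 0.33. Regulators linked to simple epithelium had a median of 0.18 with 0 of 12 at 2-fold, 9 of them above 0. Grhl3, a transcription factor of the epidermal barrier, had 0.60 (593.9 against 453.4), Foxa1 had 0.53, Klf4 had 0.45 and Ets2 had 0.44. Elf5 was detected on the array labelled knockout alone, where it was at least 1.32-fold higher.

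Among other genes of activated keratinocytes, 6 of 17 detected genes reached 2-fold upward and 0 downward on the array labelled knockout. Over all detected genes the shares were 1.28% and 1.11%. This list was chosen with earlier results of these data known. The other 11 were not counted at 2-fold, among them Itga5 at 0.03 and Hbegf at -0.08. Of these, Sprr2h and Tgfa have only bounds, at least 1.25-fold and 1.039-fold higher. The median of the 17 was 0.55 (0.50 with bounds). In the deposited normalized values 4 were at 2-fold higher, beside 0.283% of all detected genes, and the median was 0.43. The 6 were S100a8, S100a9, Stfa1, Stfa3, Sprr2d and Lcn2. The log2 differences were 3.15 for S100a8, 3.06 for Stfa3, 2.68 for Stfa1 and 1.96 for S100a9. Lcn2 (223.2 against 152.6) was detected on the array labelled knockout alone and has only a bound, at least 2.76-fold higher after background removal. The deposited normalized intensities gave 1.72-fold for Lcn2 and 1.90-fold for S100a9. S100a8, a subunit of calprotectin, had 1782 against 321.9, whereas Krt16 on the same arrays had 4960 against 5032. Krt16 and the calprotectin genes are both known as markers of inflamed epidermis. Langerhans cells are the antigen-presenting cells of the epidermis, and their detected markers also had values above 0. Of 5 on the array 3 were detected, with log2 differences of 1.05 for H2-Ab1 and 0.83 for Cd74, and signals of 717.5 against 439.3 for Cd207, and Itgax and Ptprc were detected on neither array. Of these, 2 were at 2-fold, against 0 in the deposited normalized values, where the median was 0.77. The summed signal of the list was 6769.5 against 3988.5, and its part in the values of the activated keratinocyte genes was not tested.

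Markers of other cell types that use simple-epithelium keratins were mostly at background. In bulk RNA, more cells of a type and more RNA per cell cannot be told apart. Of 12 Merkel cell markers 2 were detected, Syp (220.5 against 178.9) and Chga (184.0 against 149.6), and 0 were at 2-fold. After background removal Syp had a log2 difference of 0.95, and Chga was at least 1.65-fold higher. The bound for Chga holds for that setting alone, since the deposited normalized intensities gave 1.41-fold for Chga and 1.33-fold for Syp. The defining markers Krt20, Atoh1, Sox2, Isl1 and Piezo2 were not detected on either array, and the summed signal of the list, 1812 against 1808, is mostly the background of its 10 undetected genes. Background also makes up much of the sums of the sweat gland list. Of 11 sweat gland markers 5 were detected, with 1 at 2-fold, Scgb1b27 (258.3 against 142.8). It was at least 3.74-fold higher after background removal, a bound that holds for that setting alone, since its deposited normalized intensities gave 2.19-fold. Over all detected genes 1.28% were at least 2-fold higher. Among the others, Foxa1 (0.53), Ano1 (0.61) and Atp6v1b1 (-0.45) were detected on both arrays, and Aqp5, Cftr and Foxi1 on neither. Wfdc18 (194.7 against 150.2) was detected on the array labelled knockout alone. It was at least 1.96-fold higher after background removal, and its deposited normalized intensities gave 1.51-fold. In all, 4 of the 5 detected genes were above 0, with a median of 0.61 (0.39 in the deposited values). The sums of the list were 2183 against 1936.5. Of 10 mammary epithelium markers 4 were detected and 0 were at 2-fold, with sums of 5983.5 against 5391. Most of these sums was the signal of Areg (3558 against 2836) and Prlr (1252 against 1402). Areg was also among the activated keratinocyte genes. The milk protein genes Csn2, Csn3, Wap and Lalba were at background on both arrays.

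Sebaceous gland markers, of which 8 of 11 were detected, had a median of 0.62 (0.47 with bounds) and sums of 31871.5 against 25826. Of these, 1 exceeded 2-fold after background removal, Soat1 (221.0 against 153.5, at least 2.70-fold higher), whose deposited normalized intensities gave 1.69-fold, and 0 did so in the deposited values. Cidea was 1.96-fold and Mgst1 1.73-fold higher, while Scd1, Pparg and Plin2 had -0.01, -0.11 and -0.725. In all, 5 of the 8 detected genes were above 0. Most of both sums was the signal of Krt79, at 25313 against 19763. Mc5r, Awat2 and Far2 were not detected. Companion layer and outer root sheath markers went the other way for 3 of 4 detected genes of 7, with Tnc, Lgr5 and Shisa2 at least 2-fold lower. The other detected gene, Barx2, was 1.997-fold higher (951.9 against 568.4), and the sums were 1968 against 2204. In the deposited normalized values only Shisa2 of the 3 was at least 2-fold lower, and the median was -0.67 in place of -1.58 (-1.42 with bounds). Of 9 detected bulge and hair germ markers of 10, 4 were at least 2-fold lower, among them again Lgr5, with sums of 2838 against 3653. Sox9 (0.19) and Tcf7l1 (0.29) were above 0, and Lgr6 was at least 1.008-fold higher. In the deposited normalized values 1 of the 4 was at least 2-fold lower, and the median was -0.39 in place of -0.92 (-0.77 with bounds). As a scale for these lists, 1.11% of all detected genes were at least 2-fold lower and 1.28% higher. The same shares were 0.178% and 0.283% in the deposited normalized values. Krt19, also known from the bulge, was at background on both arrays. Of 6 endothelial and 6 skeletal muscle markers 2 each were detected, with 0 at 2-fold. The part of these cell types in the values of Krt7 and the stress keratins was not tested.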

How the data were processed

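Expression was measured on 2 Illumina bead arrays, 1 per group, with groups taken from the genotype labels. The deposited tables hold average bead intensity per probe on a linear scale, non-normalized and normalized, per the file headers, and GenomeStudio 2011.1 is named in the submitters' processing notes. How they were normalized is not given in the sources used here. Both normalized columns share the same sorted values to within 0.3 units, and a further deposited value table is identical to them. The deposited detection p-value columns do not follow the rows of the intensities, with Spearman's rho of -0.0073 on the array labelled knockout and -0.0053 on the control array across probes. Each array's p-values were therefore sorted and handed to the probes in order of intensity, smallest p to highest intensity, and ties took the larger p.

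From the non-normalized intensities, limma 3.58.1 in R 4.3.3 removed the background by normexp (offset 16), took log2 values and applied quantile normalization. These steps were also run on simulated arrays. Only genes brighter than Krt7 were given a known fold there, so the fold of a probe as dim as that of Krt7 was not checked. The background removal widens folds of dim probes. A gene was represented by its brightest probe and kept when detected (p under 0.05) on at least 1 array. A gene detected on 1 array has only a bound, set against its dim value or the lowest detected value there, whichever is higher. Differences are knockout minus control, and at least 2-fold was counted. In all, 25376 probes were matched to GRCm38.p6 gene symbols by Entrez number, accession, symbol or synonym, and 321 kept the name of the file. The number of arrays limits the precision.

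The members and the gene lists were chosen with earlier results of these data known. Named genes are all members, Vdr, the 4 largest differences and the brightest gene of each further list, and the defining markers of other cell types. Any further gene named was chosen after its values were seen.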

Additional observations from a re-analysis of the deposited data

How the results depend on the processing

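In all, 7 alternatives were run for each result. A log2 value was taken as moved when it shifted by over 1.5-fold, and a count when it changed by over 1.5 times. The count of 1 simple-epithelium keratin and 0 stress keratins at least 2-fold apart was the same under all 7, and the stress keratin median stayed between -0.03 and 0.02. The value of Krt7, which is the simple-epithelium median, was 1.32 in the deposited normalized values, and 1.27 when no background was removed. The second of these settings differs from the calculation above only in the background step. How the deposited values were normalized is not given, so the cause of their lower value was not tested. The gap of Krt7 to the stress keratin median was 1.31 and 1.255 under the same settings. Without a detection filter the simple-epithelium median was 0.23 and the gap 0.21, since 3 genes at background then enter it. The number of genes at least 2-fold apart was 228, against 47 without background correction, 112 with an offset of 50 and 44 in the deposited normalized values. Krt6b changed from -0.35 to 0.08 when its probes were averaged. No paired analysis was possible because each group has 1 array, and no array could be left out for the same reason. Signal over background limits what can be said of the 4 members that were not detected and of Krt7 on the control array.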
